A study of Mus musculus with 27 samples.

Results

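Pfkfb1, Pfkfb3, Pfkfb4, Gys1, Gbe1, Pygm, Phka1, Phkg1 and Slc2a4 are genes that set the pace of glycolysis and the storage, release and uptake of glucose in muscle. They were taken by their symbols from a table of 54532 genes, and all 9 were found. The transcripts were measured by bulk RNA sequencing of the tibialis anterior, a fast-twitch muscle of the lower hind limb, of C57BL/6 mice after volumetric muscle loss (VML). VML is the surgical or traumatic removal of a piece of muscle too large to regrow. The mice were 8-week-old males, and 40% of the muscle had been cut out. Uninjured muscle gave 5 samples, and injured muscle gave 5 samples each at days 3 and 21 and 6 each at days 7 and 14. The labels name no transgene and no drug in any group. The series record describes excision in 1 leg and the study's methods describe a bilateral injury, so whether 2 samples could come from 1 mouse is not known. The labels do not say that replicates were separate animals, and p-values therefore measure only the spread between these samples.

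The bifunctional PFKFB enzymes make and remove the sugar bisphosphate that switches on phosphofructokinase, the main control point of glycolysis. The isoforms differ in the balance of their kinase and phosphatase activities. Glycogen, the glucose store of a muscle fibre, is built by glycogen synthase (Gys1) and branched by Gbe1. It is broken down by muscle glycogen phosphorylase (Pygm), which phosphorylase kinase switches on. Phka1 encodes the muscle regulatory alpha subunit of that kinase and Phkg1 its muscle catalytic subunit. Slc2a4 encodes GLUT4, the glucose transporter that insulin and contraction bring to the fibre surface. Loss of PYGM in people causes McArdle disease, in which muscle cannot use its glycogen.

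Promoters of 8 of the 9 genes were found in the RefSeq table (GRCm38.p6), in 12 windows that run from 250 bases before to 50 bases after an annotated start. Both Pfkfb3 windows are shown because that gene had the lowest levels relative to uninjured muscle at every day. The Pfkfb4 window is shown because that gene was not called at any day, and the Pygm window because that gene was by far the most abundant of the 9. Capitals mark an E-box (CANNTG, the motif read by the MyoD family among others) and ACGTG, on either strand. ACGTG is a form of the core of the hypoxia response element, and the form GCGTG was not searched. The first Pfkfb3 window is chr2:11553880-11554179 and the second chr2:11502041-11502340, both on the minus strand. The Pfkfb4 window is chr9:108991652-108991951 and the Pygm window chr19:6384158-6384457, both on the plus strand.
Pfkfb3, first start: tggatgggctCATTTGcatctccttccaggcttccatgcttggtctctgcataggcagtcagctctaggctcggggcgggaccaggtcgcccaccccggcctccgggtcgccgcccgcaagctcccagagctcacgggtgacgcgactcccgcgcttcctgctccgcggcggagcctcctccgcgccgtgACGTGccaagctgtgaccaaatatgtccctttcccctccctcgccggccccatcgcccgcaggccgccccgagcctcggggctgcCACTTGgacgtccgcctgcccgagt
Pfkfb3, second start: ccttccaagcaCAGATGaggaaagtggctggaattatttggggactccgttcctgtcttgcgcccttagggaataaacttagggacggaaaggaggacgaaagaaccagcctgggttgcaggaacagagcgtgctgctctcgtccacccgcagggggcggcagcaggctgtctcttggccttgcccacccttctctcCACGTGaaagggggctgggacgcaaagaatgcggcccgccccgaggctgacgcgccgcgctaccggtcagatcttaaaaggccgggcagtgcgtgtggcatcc
Pfkfb4: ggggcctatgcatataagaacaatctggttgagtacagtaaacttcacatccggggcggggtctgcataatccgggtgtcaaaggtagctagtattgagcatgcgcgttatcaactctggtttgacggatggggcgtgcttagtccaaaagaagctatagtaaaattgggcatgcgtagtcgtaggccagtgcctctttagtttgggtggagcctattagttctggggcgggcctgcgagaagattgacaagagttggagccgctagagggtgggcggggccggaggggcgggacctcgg
Pygm: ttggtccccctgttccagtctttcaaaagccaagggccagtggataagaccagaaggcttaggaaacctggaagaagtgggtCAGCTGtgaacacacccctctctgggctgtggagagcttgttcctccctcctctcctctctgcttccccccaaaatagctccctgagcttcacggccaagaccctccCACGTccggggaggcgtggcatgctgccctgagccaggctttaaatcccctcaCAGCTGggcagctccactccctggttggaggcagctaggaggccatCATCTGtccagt
ACGTG was found in 19.6% of the 32851 promoters of the table, an E-box in 72.3% and a GC box (GGGCGG) in 35.7%. A loose MEF2 pattern (CTANNNNTAG, any base at N) was found in 3.69%. Both Pfkfb3 windows held ACGTG. In the second it lay inside an E-box 53 bases before the start and was read on both strands. Pygm had 3 E-boxes and 1 ACGTG, 61 bases before its start. Pfkfb4 had neither an E-box nor ACGTG and held 4 GC boxes. Its window holds GCGTG, which was not counted. Of the 12 windows, only that of Phka1 held the loose MEF2 pattern, and no window outside Pfkfb3 and Pygm held ACGTG. The Phka1 match was CTAAAACTAG, whose inner C a pattern with only A or T at N would exclude. A match of letters describes the window and does not show that a factor binds there.

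Libraries held 14376395 to 24436763 reads assigned to genes (median 17398586), so each value of a member rested on at least 116 reads. Values are FPKM, that is fragments per kilobase of exon, divided by a depth factor that the authors set. Of the 27 samples, 9 lay closer in whole-transcriptome profile to the mean of another group than to the rest of their own, among them day 3 replicate 5, closest to day 7, and day 7 replicate 5, closest to day 3. The summed level of 6 macrophage markers was 15.97 to 24.3 FPKM in uninjured samples and 307 to 2128 at day 3. It was 42.8 to 1990.2 at day 7, and the later groups spanned 42.9 to 99.8 (day 14) and 30.8 to 55.7 (day 21). All 6 rose at day 3. Summed levels of 5 fibroblast markers ranged from 44.7 to 115 FPKM in uninjured samples and from 390 to 799 at day 3. The part of other cells in the members' values was not tested, and in bulk tissue fewer muscle fibres cannot be told apart from less RNA per fibre. Rescaling each library to a common FPKM sum shifted the median log2 fold change of all genes by 0.61, 0.55, 0.34 and 0.13 at days 3, 7, 14 and 21. Under it, the share of called genes that were higher went from 54.1%, 51.0%, 44.5% and 50.8% at these days to 95.5%, 96.8%, 94.7% and 88.9%.

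Most of the 9 genes were lower than in uninjured muscle early after injury and most had moved back towards the uninjured level by day 21. A gene was called when its adjusted p in limma was under 0.05, on log2(FPKM + 1), among 14630 genes tested. At day 3, 7 members fell, against 19.8% of all genes called lower. At day 7, 7 members fell, against 14.4% of all genes. At day 14, 4 members fell (Pfkfb3, Gys1, Pygm and Phka1), against 11.3% of all genes, and at day 21 Pfkfb3 was the 1 member that fell, against 1.69%. The members not called at day 3 or day 7 were Pfkfb4 and Gbe1. No member was called higher by limma at any day, and no member that was higher reached an unadjusted p under 0.05. The median log2 fold change of the members was -1.63, -1.09, -0.78 and -0.46 at days 3, 7, 14 and 21. The median of all genes tested lay between 0.01 and 0.03 at each day. When the 9 samples closer to another group were left out together, 8 members were called at each of days 3, 7 and 14 and 1 at day 21, all lower, while the share of all genes called lower also rose, to 23.1%, 18.5%, 16.1% and 2.75%. Those samples were picked by the expression then tested, which builds in tighter groups, so these calls are a description only. Replicates 1, 2 and 4 remained at days 7 and 21, and replicates 2, 4 and 5 at day 14. Rescaled to a common FPKM sum, 6 members were called lower at day 3 and Pfkfb3 alone at days 7 and 14, against 2.21%, 1.44% and 0.7997% of all genes, and none at day 21.

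**Figure D1:**
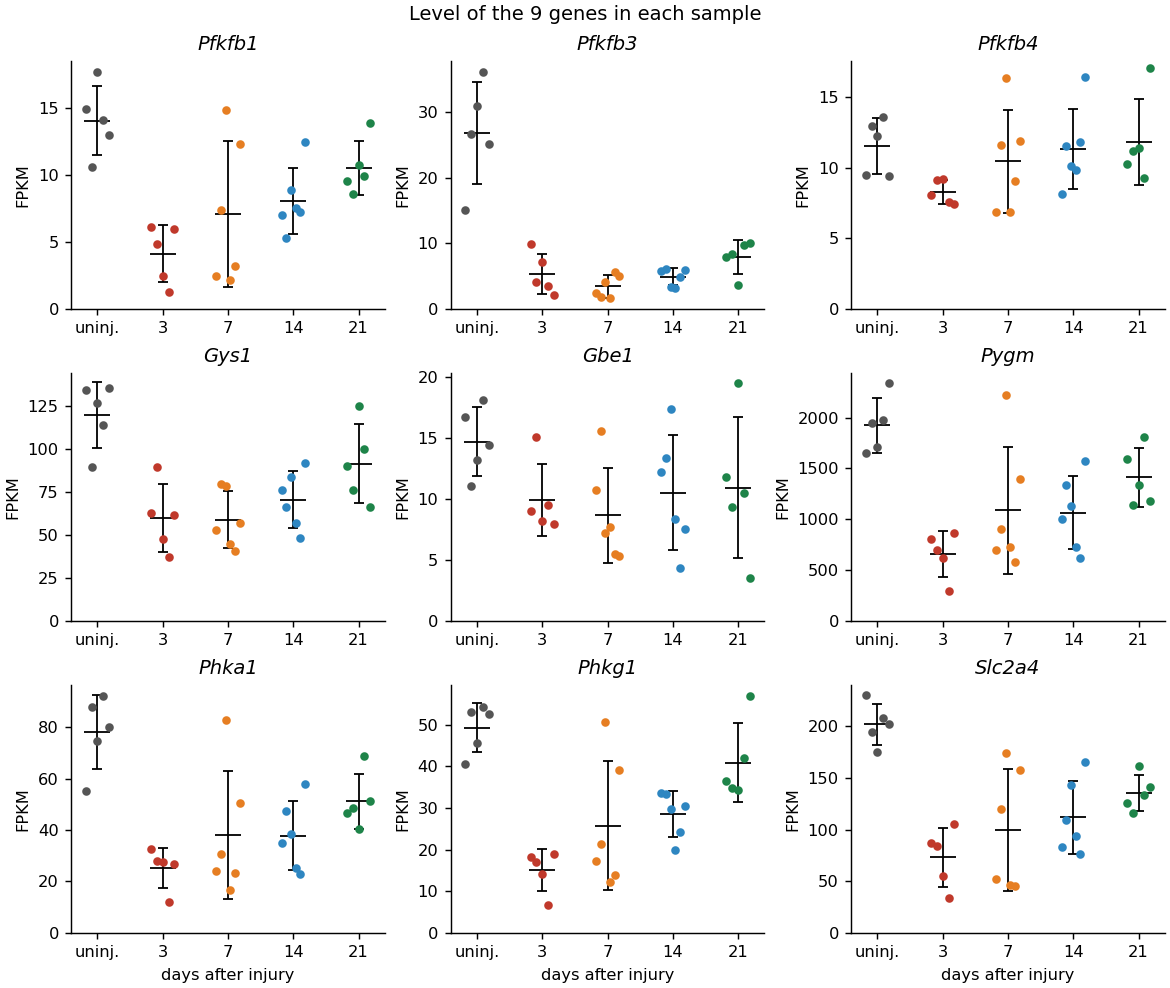
Level of each of the 9 genes in FPKM (vertical axis, from 0) in uninjured muscle and 3, 7, 14 and 21 days after injury. Each point is 1 sample, the bar is the group mean and the whiskers are 1 SD (n = 5, 5, 6, 6 and 5). Pfkfb3 stayed between 1.62 and 10.1 FPKM in all injured samples, below the lowest uninjured sample at 15.01, whereas the Pfkfb4 groups at days 7, 14 and 21 overlapped the uninjured group.

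Pfkfb3 (ENSMUSG00000026773, chr2:11471433-11554077, minus strand) encodes the isoform with the highest kinase activity, which drives glycolysis in many growing or hypoxic cells. In uninjured muscle its 5 values were 15.01, 26.7, 31.0, 36.1 and 25.2 FPKM. At day 3 they were 9.83, 4.03, 7.07, 3.43 and 2.15 FPKM. At day 7 the 6 values ran from 1.62 over a median of 3.26 to 5.60, and at day 14 from 3.17 over 5.35 to 6.12. At day 21 they were 7.85, 8.31, 3.68, 9.78 and 10.1. No injured sample at any day reached the lowest uninjured sample.

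The mean of Pfkfb3 was 26.8 ± 7.83 FPKM in uninjured muscle (SD, n = 5). At days 3, 7, 14 and 21 it stood at 19.8%, 12.7%, 18.2% and 29.6% of that. The log2 fold change was -2.23 ± 0.32 at day 3 (SE, adjusted p = 7.32e-06) and -2.70 ± 0.30 at day 7 (adjusted p = 2.11e-06). It was -2.22 ± 0.30 at day 14 (adjusted p = 9.75e-05) and -1.65 ± 0.32 at day 21 (adjusted p = 0.00468). These falls were called under 42 of 42 settings at days 3, 7 and 14 and under 41 of 42 at day 21, where rescaling to a common FPKM sum gave an adjusted p of 0.0559. The exact two-sided permutation p was 0.00794 at days 3 and 21 and 0.00433 at days 7 and 14, the smallest that these sample numbers allow. Such a test was made for each of the 9 members in 8 comparisons and is given unadjusted. From day 3 to day 21 the Pfkfb3 difference was 0.58 (95% interval -0.07 to 1.23, adjusted p = 0.181), so a return between these days was not called.

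Pfkfb1 (ENSMUSG00000025271, chrX:150588229-150643878, plus strand) is the isoform first known from liver and muscle. Its uninjured values were 14.9, 10.6, 17.7, 14.1 and 12.99 FPKM. At day 3 they were 6.13, 4.82, 2.48, 1.27 and 5.94. All day 3 samples lay below all uninjured ones. At day 7 Pfkfb1 ran from 2.16 over a median of 5.28 to 14.8, at day 14 from 5.29 over 7.38 to 12.5, and at day 21 it was 9.56, 8.58, 10.7, 9.91 and 13.9. The day 7 group was split, with 4 of 6 samples below every uninjured sample, and overlap with the uninjured group continued at days 14 and 21. Pfkfb1 fell at day 3 (log2 fold change -1.67 ± 0.37, SE, adjusted p = 0.000738) and at day 7 (-1.18 ± 0.35, adjusted p = 0.0139). The values were -0.76 at day 14 (adjusted p = 0.126) and -0.39 at day 21 (adjusted p = 0.601). Of its exon bases 3.06% overlap Apex2 on the opposite strand, and reads from the 2 genes cannot be told apart there in a library without strand.

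Pfkfb4 (ENSMUSG00000025648, chr9:108991778-109032228, plus strand) was first described in testis and is induced by low oxygen in many tissues. Its uninjured values were 9.47, 12.97, 12.2, 13.6 and 9.39 FPKM, and at day 3 they were 8.06, 9.15, 9.17, 7.57 and 7.40. The day 3 samples lay just below the uninjured ones without overlap. At day 7 Pfkfb4 ran from 6.86 over a median of 10.3 to 16.3, at day 14 from 8.15 over 10.8 to 16.4, and at day 21 it was 10.3, 11.1, 11.4, 9.23 and 17.03. At these days the injured samples lay on both sides of the uninjured range. The log2 fold change was -0.42 at day 3 (95% interval -0.82 to -0.02, adjusted p = 0.0823, exact permutation p = 0.00794), -0.17 at day 7, -0.04 at day 14 and 0.02 at day 21 (95% interval -0.38 to 0.42). Rescaled to a common FPKM sum, the day 3, day 7 and day 14 values turned to 0.34, 0.51 and 0.41, under or near the shift of the median gene. The day 7 value was then called higher (adjusted p = 0.0225), as were 6372 of all 14630 genes.

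The make-up of the Pfkfb family turned over. The sum of Pfkfb1, Pfkfb2, Pfkfb3 and Pfkfb4 was 53.8 ± 10.1 FPKM in uninjured muscle (SD, n = 5) and 18.3 ± 4.36 at day 3. It was 21.9 ± 9.98 at day 7, 26.2 ± 5.26 at day 14 and 32.0 ± 6.51 at day 21. Pfkfb3 made up 49.0 ± 7.16% of the sum in uninjured muscle and 27.7 ± 11.04% at day 3. Its share was 16.5% at day 7, 18.8% at day 14 and 24.8% at day 21. Pfkfb4 made up 21.6 ± 2.52% in uninjured muscle and 46.8 ± 9.81% at day 3, then 50.03%, 42.9% and 36.8%. The smallest Pfkfb4 share in any injured sample was 30.7%, above the largest in an uninjured sample, 25.1%. Pfkfb2, the isoform best known from heart, stayed under 10% of the sum in every sample.

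**Figure D2:**
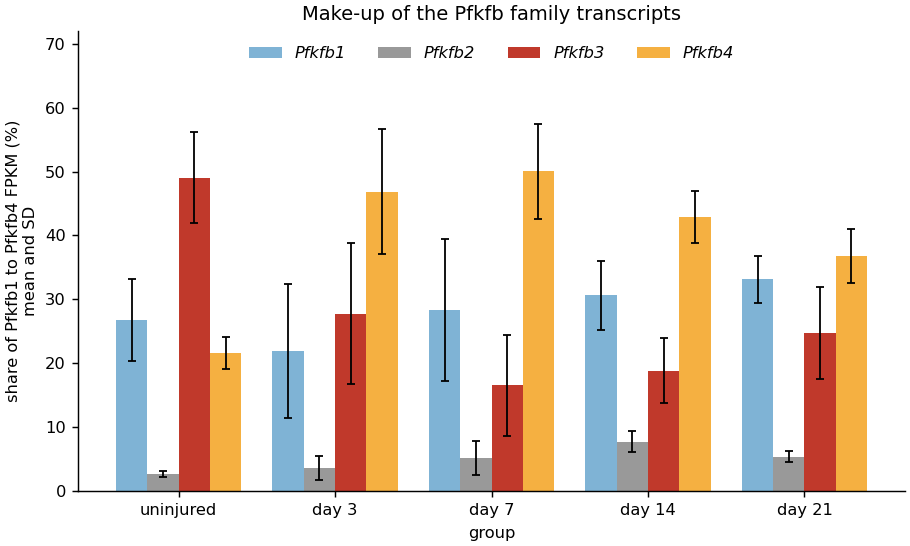
Share of each Pfkfb gene in the summed FPKM of Pfkfb1, Pfkfb2, Pfkfb3 and Pfkfb4 (vertical axis, percent, from 0) by group. Bars are means over 5, 5, 6, 6 and 5 samples and whiskers are 1 SD. The Pfkfb3 bar falls from 49.0% in uninjured muscle to 16.5% at day 7 while the Pfkfb4 bar goes from 21.6% to 50.03%.

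The ratio of Pfkfb4 to Pfkfb3 was taken within each sample, as the difference of log2(FPKM + 1). Its mean was -1.11 in uninjured muscle and 0.69, 1.41, 1.07 and 0.55 at days 3, 7, 14 and 21. Every injured sample lay above every uninjured one. The difference was 1.80, 2.53, 2.18 and 1.67 on the log2 scale, each with an adjusted exact permutation p of 0.0128 over the 28 ratio tests made. Without the added 1, which makes the ratio independent of library scaling, it was 2.02, 2.89, 2.41 and 1.80. The ratio of Pfkfb3 to Pfkfb1 was lower, by -1.52, -1.47 and -1.26 at days 7, 14 and 21 (adjusted exact permutation p = 0.0128 each). At day 3 the difference was -0.56 (adjusted exact permutation p = 0.302).

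Of the 6 tested phosphofructokinase and fructose bisphosphatase genes, 3 fell at day 3 and 2 rose, where 19.8% of all genes fell and 23.4% rose. The falls were led by Pfkm, the muscle phosphofructokinase, at 1472 ± 75.0 FPKM in uninjured muscle and 495 ± 158 at day 3 (log2 fold change -1.65, adjusted p = 0.000129). Tigar, a bisphosphatase that opposes the PFKFB kinases, went from 36.8 ± 3.28 to 11.9 ± 4.13 FPKM (-1.61, adjusted p = 0.000683). The risers were the non-muscle subunits Pfkl (0.74, adjusted p = 0.00460) and Pfkp (0.68, adjusted p = 0.000746), both under 4 FPKM on average. In the same list 2 fell at day 7 and 3 fell at day 14, and none rose, where 15% of all genes rose at day 7, 9.02% at day 14 and 1.74% at day 21. None was called at day 21.

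Gys1 (ENSMUSG00000003865, chr7:45434844-45456619, plus strand), the muscle glycogen synthase, had uninjured values of 135, 89.6, 127, 114 and 136 FPKM. At day 3 they were 63.0, 90.0, 47.8, 37.1 and 61.9. Day 3 replicate 2 sat just above the lowest uninjured sample and the other 4 lay below it. At day 7 Gys1 ran from 40.97 over a median of 55.2 to 79.5 and at day 14 from 48.3 over 71.3 to 91.8. At day 21 it was 90.0, 76.2, 125, 100.2 and 66.1. All 6 day 7 samples, 5 of 6 at day 14 and 2 of 5 at day 21 lay below the uninjured group. Gys1 fell at day 3 (log2 fold change -1.04 ± 0.23, SE, adjusted p = 0.000784), day 7 (-1.04 ± 0.22, adjusted p = 0.00143) and day 14 (-0.78 ± 0.22, adjusted p = 0.0148), and stood at -0.41 at day 21 (adjusted p = 0.330). Rescaled to a common FPKM sum, none of these was called, with -0.22 at day 3 (adjusted p = 0.495), -0.33 at day 7 (adjusted p = 0.285) and -0.30 at day 14 (adjusted p = 0.398), and the day 14 call was also lost after quantile normalization (adjusted p = 0.132). Of its exon bases 6.47% overlap Ruvbl2 on the opposite strand.

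Gbe1 (ENSMUSG00000022707, chr16:70313949-70569716, plus strand), the branching enzyme, had the widest scatter of the 9 relative to its mean at days 14 and 21. Uninjured samples held 16.7, 11.1, 13.2, 18.1 and 14.4 FPKM and day 3 samples 8.97, 15.1, 8.17, 9.48 and 7.90. Apart from day 3 replicate 2, which lay inside the uninjured range, the day 3 samples were below it. At day 7 Gbe1 ran from 5.32 over a median of 7.44 to 15.6, at day 14 from 4.29 over 10.3 to 17.4, and at day 21 it was 11.8, 9.33, 19.5, 10.49 and 3.46. At day 14 3 of 6 samples lay below the uninjured range and none above it, whereas the day 21 group extended past it at both ends. The log2 fold changes were -0.54, -0.77, -0.54 and -0.54 at the 4 days, with adjusted p from 0.0678 at day 7 to 0.379 at day 21. The day 21 interval ran from -1.22 to 0.14, which leaves room for a fall of more than 2-fold. Rescaling to a common FPKM sum turned the day 3 value to 0.23.

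Of the 5 tested partners of glycogen synthesis, 3 fell and none rose at each of days 3, 7 and 14. Among all genes 19.8%, 14.4% and 11.3% fell at these days and 23.4%, 15% and 9.02% rose. The falls in the list were led at day 3 by Epm2a, the glycogen phosphatase laforin, at 28.7 ± 2.75 FPKM in uninjured muscle and 8.92 ± 3.61 at day 3 (log2 fold change -1.66, adjusted p = 0.000169). Ugp2, which makes the UDP-glucose that Gys1 adds to the chain, went from 245 ± 44.1 to 118 ± 25.05 FPKM (-1.05, adjusted p = 0.000714). At day 21 Ugp2 was at 141 ± 46.5 FPKM and was the 1 gene of the partner lists still called (-0.82, adjusted p = 0.0465). Of the 6 tested phosphatase targeting subunits and GSK3 kinases, which turn Gys1 on and off, 3 fell and 1 rose at day 3. Ppp1r3c fell from 81.5 ± 15.2 to 25.4 ± 14.4 FPKM (-1.79, adjusted p = 0.00135) and Ppp1r3a from 29.8 ± 7.20 to 9.81 ± 3.87 (-1.57, adjusted p = 0.000220). Ppp1r3d rose at under 1 FPKM (0.38, adjusted p = 0.00849). At day 21 Ppp1r3c was at 28.8 ± 6.29 FPKM and not called (-1.48, adjusted p = 0.0502).

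Pygm (ENSMUSG00000032648, chr19:6384399-6398459, plus strand), the muscle phosphorylase, had uninjured values of 1656, 1943, 1712, 1980.5 and 2336 FPKM. At day 3 they were 807, 701, 619, 297 and 868. All of these lay below the uninjured group, and day 3 replicate 4 was lowest. At day 7 Pygm ran from 576 over a median of 814 to 2222 and at day 14 from 619 over 1068 to 1569.5, and at day 21 it was 1597, 1138, 1332, 1813 and 1176. At day 7 1 sample lay inside the uninjured range. At day 14 none did, and at day 21 4 of 5 samples were still below it. Pygm fell at day 3 (log2 fold change -1.63 ± 0.33, SE, adjusted p = 0.000302), day 7 (-0.98 ± 0.31, adjusted p = 0.0202) and day 14 (-0.92 ± 0.31, adjusted p = 0.0386). At day 21 it stood at -0.46 (adjusted p = 0.451, exact permutation p = 0.0317). The day 7 fall was called under 34 of 42 settings and the day 14 fall under 31 of 42. Both were lost after quantile normalization, at -0.21 and -0.26, after rescaling to a common FPKM sum, at -0.25 and -0.44, and with no filter on low values. Omission of a single sample ended the day 7 call in 3 cases (uninjured replicate 5 and day 7 replicates 4 and 5) and the day 14 call in 8, namely any 1 of the uninjured samples or day 14 replicate 1, 4 or 5 (adjusted p up to 0.106).

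Phka1 (ENSMUSG00000034055, chrX:102513975-102644246, minus strand) had uninjured values of 55.3, 87.9, 74.6, 92.1 and 80.3 FPKM and day 3 values of 32.6, 27.8, 27.4, 11.9 and 26.9. The groups did not overlap and day 3 replicate 4 was again lowest. At day 7 it ran from 16.45 over a median of 27.3 to 83.0 and at day 14 from 22.8 over 36.6 to 58.1, and at day 21 it was 46.6, 48.7, 40.4, 69.0 and 51.4. At each of days 7 and 14 1 sample reached the uninjured range, and so did day 21 replicate 4. Phka1 fell at day 3 (log2 fold change -1.63 ± 0.33, SE, adjusted p = 0.000292), day 7 (-1.21 ± 0.31, adjusted p = 0.00571) and day 14 (-1.08 ± 0.31, adjusted p = 0.0169). At day 21 it stood at -0.60 (adjusted p = 0.309, exact permutation p = 0.0159).

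Phkg1 (ENSMUSG00000025537, chr5:129863421-129898549, minus strand) had uninjured values of 40.6, 53.1, 45.7, 54.4 and 52.7 FPKM. At day 3 they were 18.3, 17.1, 14.1, 6.68 and 19.05. No day 3 sample reached 20 FPKM and the lowest uninjured sample stood above 40. At day 7 Phkg1 ran from 12.3 over a median of 19.3 to 50.6 and at day 14 from 19.8 over 30.1 to 33.7, and at day 21 it was 36.5, 34.7, 34.3, 42.1 and 57.1. All day 14 samples lay below the uninjured group, whereas day 21 replicate 5 lay above all of it. Phkg1 fell at day 3 (log2 fold change -1.72 ± 0.30, SE, adjusted p = 6.84e-05) and day 7 (-1.09 ± 0.28, adjusted p = 0.00612). At day 14 it stood at -0.78 (adjusted p = 0.0522, exact permutation p = 0.00433) and at day 21 at -0.28 (adjusted p = 0.640). Of its exon bases 9.68% overlap Sumf2 on the opposite strand.

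The tested partners of glycogen breakdown were 7 genes. Of these 3 fell and 3 rose at day 3, where 19.8% of all genes fell and 23.4% rose. The falls included the shared kinase subunit Phkb (37.9 ± 6.75 to 12.5 ± 3.55 FPKM, log2 fold change -1.56, adjusted p = 0.000176). The risers included the liver phosphorylase Pygl (1.0003, adjusted p = 0.000506) and the brain phosphorylase Pygb (0.92, adjusted p = 0.000195). Both stayed low, at 1.47 ± 0.75 and 2.73 ± 0.50 FPKM at day 3, against 658 ± 224 for Pygm. At day 7 3 of the list rose and 2 fell, where 15% of all genes rose and 14.4% fell. At day 14 1 rose and 1 fell, where 9.02% of all genes rose and 11.3% fell.

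Slc2a4 (ENSMUSG00000018566, chr11:69942539-69948188, minus strand), which encodes GLUT4, had uninjured values of 230.4, 195, 175, 208 and 202 FPKM. At day 3 they were 86.9, 83.8, 55.1, 33.7 and 106. At day 7 they ran from 45.1 over a median of 85.6 to 174, at day 14 from 76.6 over 102 to 165, and at day 21 they were 126, 116, 162, 134 and 141. No injured sample at any day reached the lowest uninjured sample, a separation that among the members was otherwise seen at every day in Pfkfb3 alone. Slc2a4 fell at day 3 (log2 fold change -1.56 ± 0.34, SE, adjusted p = 0.000655) and day 7 (-1.24 ± 0.32, adjusted p = 0.00611). It stood at -0.90 ± 0.32 at day 14 (adjusted p = 0.0502, exact permutation p = 0.00433) and at -0.58 ± 0.34 at day 21 (adjusted p = 0.352, exact permutation p = 0.00794), neither of them called by limma. The day 14 value was called under 18 of 42 settings. The day 21 value was called under 1 of 42, the fit on the uninjured and day 21 samples alone (adjusted p = 0.0112), and its adjusted p reached 0.577 under the others. The day 7 call was lost after rescaling to a common FPKM sum (adjusted p = 0.0564).

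Of the 11 tested glucose transport, phosphorylation and GLUT4 trafficking genes, 6 fell and 2 rose at day 3. Among all genes 19.8% fell and 23.4% rose at that day. Hk2, the muscle hexokinase, fell from 54.0 ± 8.29 to 24.8 ± 5.74 FPKM (log2 fold change -1.10, adjusted p = 0.000580). The insulin receptor gene Insr fell from 4.26 ± 0.50 to 2.03 ± 0.46 FPKM (-0.81, adjusted p = 6.51e-05). Hk1, the hexokinase of most other cells, rose from 1.34 ± 0.24 to 3.85 ± 1.03 FPKM (1.03, adjusted p = 0.000500), and Slc2a1, the widespread transporter GLUT1, from 1.88 ± 0.24 to 4.38 ± 1.60 (0.85, adjusted p = 0.00137). At day 7 5 fell and 2 rose, where 14.4% of all genes fell and 15% rose. At day 14 5 fell, where 11.3% of all genes fell. Slc2a1 was at 2.15 ± 0.25 FPKM at day 21 and not called (adjusted p = 0.767).

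**Figure D3:**
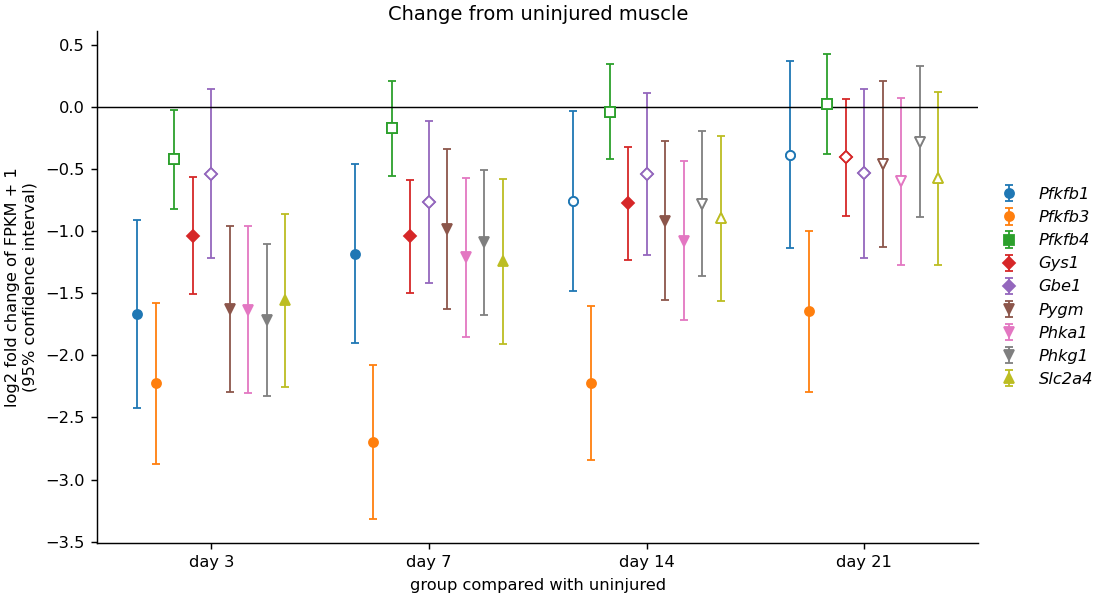
Log2 fold change of FPKM + 1 against uninjured muscle (vertical axis) for the 9 genes at days 3, 7, 14 and 21, with 95% confidence intervals from limma. Filled symbols passed an adjusted p of 0.05 over all genes and open symbols did not. Pfkfb3 is lowest at each day, from -2.70 at day 7 to -1.65 at day 21, and Pfkfb4 is highest, from -0.42 at day 3 to 0.02 at day 21.

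The return over time was called over the whole interval but, with all samples kept, not from one time point to the next. From day 3 to day 21, 6 members rose, against 9.23% of all genes called higher. The log2 differences were 1.28 ± 0.37 for Pfkfb1 (SE, adjusted p = 0.0122), 0.63 ± 0.23 for Gys1 (adjusted p = 0.0452), 1.17 ± 0.33 for Pygm (adjusted p = 0.0105), 1.03 ± 0.33 for Phka1 (adjusted p = 0.0215), 1.44 ± 0.30 for Phkg1 (adjusted p = 0.000972) and 0.98 ± 0.34 for Slc2a4 (adjusted p = 0.0345). Gbe1 stood at 0.00 (95% interval -0.68 to 0.68). Without day 3 replicate 4, the sample with the least fibre RNA, Phkg1 was the 1 member called (1.19, adjusted p = 0.00545), and without day 21 replicate 4 the count was 3. The share of all genes called under these 2 omissions is not given here. Rescaled to a common FPKM sum, Pfkfb1 and Phkg1 were called higher, where 174 of all 14630 genes were. The share of called genes that were higher went from 36.2% to 3.45%. By limma, 0 of the 9 were called from day 3 to day 7 (0.0478% of all genes in either direction), day 7 to day 14 (0.335%) or day 14 to day 21 (0%). At an unadjusted limma p under 0.05 there were 2, 0 and 0 members, where 2301, 1821 and 909 of all 14630 genes reached it. Voom weights on reads also gave 0 called members in each step. Over all genes, the step from day 3 to day 7 depended on the samples kept. Without day 3 replicate 5 and day 7 replicate 5, each closest to the other's group, 517 genes were called higher and 1748 lower. With the 9 samples closer to another group left out, 552 were higher and 1491 lower, and Pfkfb3 was called lower in limma (-1.20, adjusted p = 0.00963). Both omissions picked samples by the expression then tested, which favours more calls, so they are no independent test of this step.

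The mean level of fibre transcripts was also lower over the same days, most at day 3. The fibre index, the mean log2(FPKM + 1) of 10 fast-fibre genes such as Acta1, Ckm and Tnnt3, was 11.2 in uninjured muscle. It differed from that by -1.23 at day 3 (exact permutation p = 0.00794), -0.76 at day 7 (p = 0.0390, exact), -0.62 at day 14 (p = 0.0130, exact) and -0.27 at day 21 (p = 0.0635, exact). Of its 10 genes, limma called 9, 3, 2 and 0 lower at these days and none higher. Among all genes 19.8%, 14.4%, 11.3% and 1.69% were called lower. Day 3 replicate 4, the lowest sample for Pfkfb1, Gys1, Pygm, Phka1, Phkg1 and Slc2a4 within day 3, also had the lowest index of all 27 samples, -2.04 from the uninjured mean. Day 7 replicate 3, the highest day 7 sample for Pfkfb1, Pygm, Phka1, Phkg1 and Slc2a4, had the highest index of all, 0.19 above it. Tnnc2, a gene of the index, was listed at 0.41 FPKM in uninjured muscle, where the means of the other 9 ran from 696 to 32612 FPKM. Without Tnnc2 the index differed by -1.35 at day 3.

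Each gene was then expressed relative to this index in its own sample, and the fit was repeated over all genes. On that scale the median of all genes was 1.24, 0.79, 0.64 and 0.28 at days 3, 7, 14 and 21, that is, most genes stood higher against the fibre genes than in uninjured muscle. Pfkfb3 still fell, with values of -0.998 at day 3 (adjusted p = 0.0158), -1.94 at day 7 (adjusted p = 0.000440) and -1.60 at day 14 (adjusted p = 0.00497), and stood at -1.38 at day 21 (adjusted p = 0.111). Its calls at days 7 and 14 were made under 34 of 34 settings. That at day 3 was lost without day 3 replicate 5 (-0.65, adjusted p = 0.0859).

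Along with Pfkfb3, Pygm (-0.40, adjusted p = 0.0319) and Phkg1 (-0.49, adjusted p = 0.0397) were called lower relative to the index at day 3, making 3 members where 0.267% of all genes were lower. At day 7 Slc2a4 (-0.49, adjusted p = 0.0361) joined Pfkfb3, where 0.752% of all genes were lower, and at day 14 Pfkfb3 stood alone, where 0.424% were. Without Tnnc2 in the index, Pygm (-0.27, adjusted p = 0.141), Phkg1 (-0.36, adjusted p = 0.148) and, at day 7, Slc2a4 (-0.41, adjusted p = 0.0714) were no longer called, while Pfkfb3 still was at days 3, 7 and 14. Pfkfb4 was higher relative to the index, by 0.81 at day 3 (adjusted p = 0.00628) and 0.58 at day 7 (adjusted p = 0.0474), as were 86% and 56.8% of all genes at these days. Its value was smaller than the median gene's at both. Pfkfb1, Gys1, Gbe1 and Phka1 were not called on this scale at any day. At day 21 limma called 0 members (0.342% of all genes in either direction), with 1 at an unadjusted p under 0.05, where 1248 of all 14630 genes reached it.

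**Figure D4:**
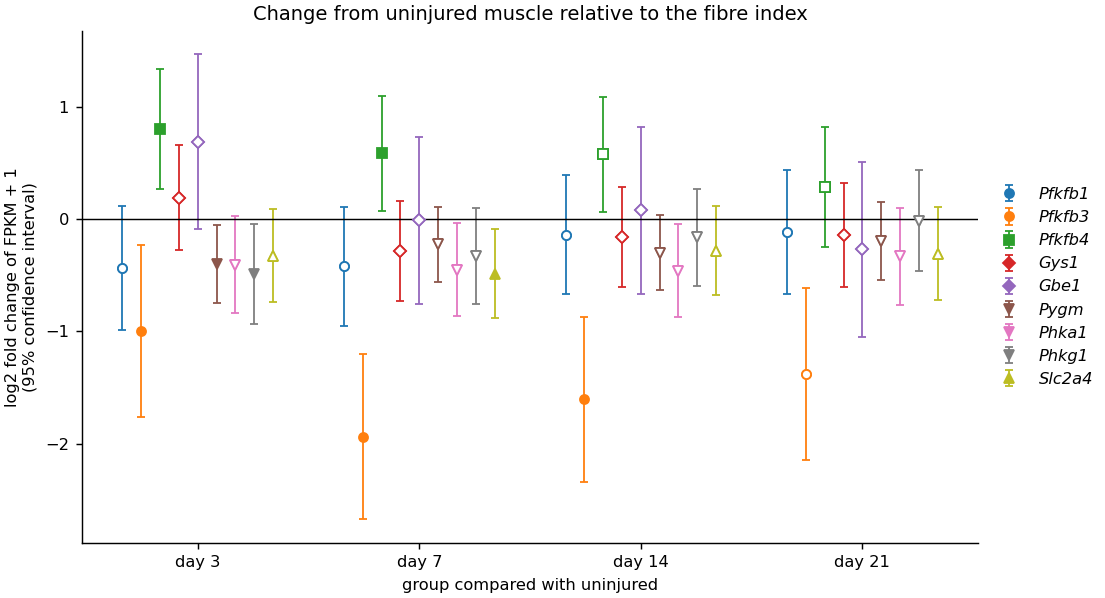
Log2 fold change against uninjured muscle after subtraction of the fibre index of each sample (vertical axis), with 95% confidence intervals from limma, for the 9 genes at 4 days. Filled symbols passed an adjusted p of 0.05 over all genes and open symbols did not. Pfkfb3 lies at -0.998, -1.94, -1.60 and -1.38, and Pfkfb4 lies above 0 at every day, at 0.81 at day 3.

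Muscle isoforms were also set against the isoform of other tissues in the same sample, again as differences of log2(FPKM + 1). The added 1 lets library scaling move such a ratio, most where the partner is near 1 FPKM. Of the 28 ratio tests, all kept their direction and their side of the threshold after rescaling to a common FPKM sum and with plain FPKM. The log2 ratio of Pygm to Pygb was 9.93 in uninjured muscle and differed from that by -2.54, -1.72, -1.31 and -0.85 at days 3, 7, 14 and 21 (adjusted exact permutation p = 0.0128, 0.0231, 0.0128 and 0.0128). With plain FPKM these were -3.14, -2.21, -1.64 and -1.20, and after quantile normalization the last 3 were not called. The day 7 call was also lost without uninjured replicate 4 or 5 (adjusted exact permutation p = 0.0508 each). That of Phka1 to Phka2, the liver alpha subunit, was 5.06 and differed by -2.42, -1.64, -1.42 and -0.90 (adjusted exact permutation p = 0.0222 at day 21 and 0.0128 before). The ratio of Slc2a4 to Slc2a1 was 6.14 and differed by -2.40, -1.99, -0.96 and -0.70, with no overlap between injured and uninjured samples at any day (adjusted exact permutation p = 0.0128 each), and the day 21 call was lost after quantile normalization (adjusted exact permutation p = 0.0585). For Phkg1 over Phkg2, the liver catalytic subunit, the ratio differed by -1.92 at day 3 and -1.15 at day 14 (adjusted exact permutation p = 0.0128 each), and by -1.25 at day 7 (p = 0.0791, exact) and -0.24 at day 21 (p = 0.176, exact). Without day 7 replicate 3 the day 7 ratio was called (-1.52, adjusted exact permutation p = 0.0303). The ratio of Gys1 to Pygm, synthesis against breakdown, was not called. It differed by 0.59 at day 3 (adjusted exact permutation p = 0.0707), and by -0.06, 0.14 and 0.05 at the later days. It was called under 1 of 32 settings at day 3, without uninjured replicate 1 (0.69, adjusted exact permutation p = 0.0404), and under 1 of 32 at day 7, after quantile normalization (-0.55, adjusted exact permutation p = 0.0227).

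**Figure D5:**
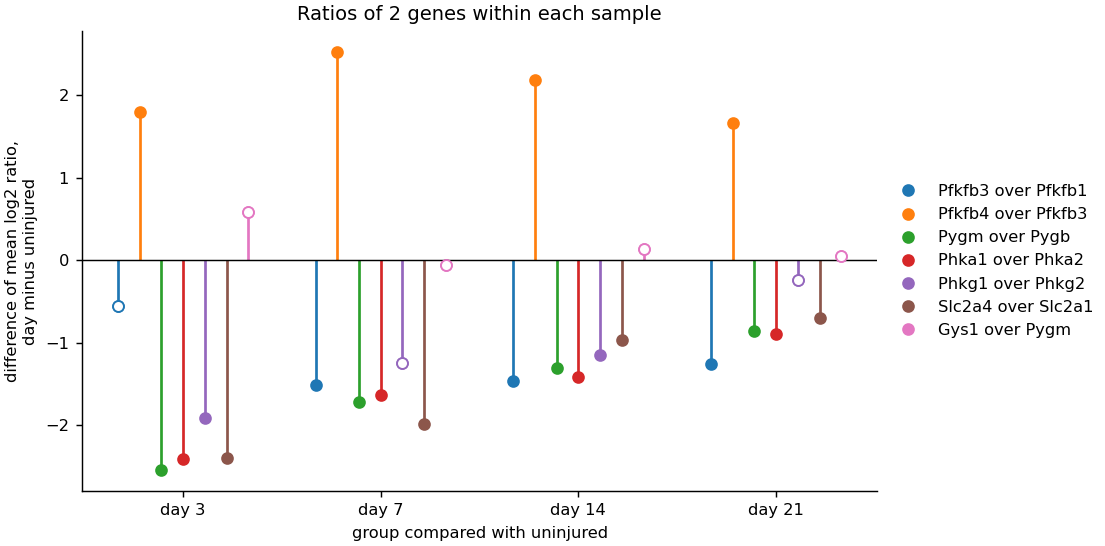
Difference of the mean log2 ratio of 2 genes between each injured group and the uninjured group (vertical axis), for 7 ratios at 4 days. Filled circles passed an adjusted exact permutation p of 0.05 over 28 tests and open circles did not. The ratio of Pfkfb4 to Pfkfb3 rises at every day, most at day 7 (2.53), and the ratio of Gys1 to Pygm has open circles at each day.

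In uninjured muscle the order of levels, per length, was Pygm (1925 ± 270 FPKM), Slc2a4 (202 ± 20.0), Gys1 (120 ± 19.2), Phka1 (78.0 ± 14.4), Phkg1 (49.3 ± 5.92), Pfkfb3 (26.8 ± 7.83), Gbe1 (14.7 ± 2.79), Pfkfb1 (14.1 ± 2.59) and Pfkfb4 (11.5 ± 1.97), as mean ± SD of 5 samples. The ranges of Gys1 and Phka1 overlapped, as did those of Pfkfb3 and Gbe1, and those of Gbe1, Pfkfb1 and Pfkfb4. At day 7 Pfkfb3 was last of the 9, at 3.40 ± 1.71 FPKM (n = 6). The tested genes whose pattern over the 27 samples was nearest to a member are given by the root mean square difference of log2(FPKM + 1), each gene centred on its uninjured mean. For Pfkfb3 they were Chac1 (0.60), Nmrk2 (0.71) and 1700001O22Rik (0.75), at distances larger than for any other member examined. The distances are not scaled to the size of a member's own change. The root mean square of the member itself was 2.09 for Pfkfb3, 0.85 for Gys1, 1.07 for Pygm and 1.14 for Slc2a4. The nearest genes of the others were as follows. For Gys1 they were Hadh (0.15), Kif1b (0.19) and Rtn4ip1 (0.19), and for Slc2a4 Slc25a4 (0.17), Mpc2 (0.18) and Rpl3l (0.20). For Pygm they were Ppm1l (0.21), Klhl31 (0.21) and Pgm2 (0.22), and Phka1 came at rank 9 (0.24) and Phkg1 at rank 27 (0.28) among all genes. These distances are a description, and the samples share the injury and its lower fibre index.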

How the data were processed

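RNA of 27 tibialis anterior samples was sequenced after poly-A selection from libraries without strand. The authors aligned reads with HISAT2 2.0.5 and counted them with featureCounts 1.5.0-p3, per the submitters' processing notes, and deposited gene FPKM values. The build is not given in the sources used here, and the coordinates of all 9 genes equal those of GENCODE M21 on GRCm38. FPKM times gene length, divided in each sample by the value of a single read, gave whole reads for 100% of values above 0 (within the larger of 0.02 reads and 0.0001 of the count), and their sums are the depths given. Relative to the reads assigned to genes in each library, the depth factor that the authors used ranged from 0.747 to 1.48. It differed between groups, with means of 0.782 in uninjured muscle and 1.25, 1.18, 1.04 and 0.897 at days 3, 7, 14 and 21. A larger factor gives a lower FPKM for the same share of reads, and rescaling to a common FPKM sum takes the factor out.

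The 14630 genes that reached an FPKM of 0.5 in 5 or more samples were kept. limma 3.58.1 (R 4.3.3) was fitted on log2(FPKM + 1) to all 27 samples with a mean-variance trend. Calls used a Benjamini-Hochberg adjusted p of 0.05 per comparison. The script was tested on simulated data. A fold change on this scale understates that of low genes. Exact two-sided permutation tests used scipy 1.17.1. The members, the partner lists and the tests were chosen with earlier results of these data known. Named were all members, at days 3 and 21 the 2 called genes per partner list and direction with the largest change, the genes of the ratios and the 3 genes nearest to 4 members. One gene that this rule names is not reported here. Index genes, samples and Ppp1r3c at day 21 were named after their values were seen. Alternatives were other pseudocounts, filters, scalings, voom weights, pairwise fits, blocks and omission of each sample. A further 5 alternatives were added after seeing the data: 2 that left out samples, 1 that took Tnnc2 out of the index, and for the ratios a common FPKM sum and no pseudocount. The 2 that left out samples picked them by the expression then tested, so their p-values and counts are descriptions only.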

Additional observations from a re-analysis of the deposited data

Results flagged for a closer look

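In 45 groups (9 genes in 5 groups), 3 held a sample far from the others, and chance flags about 1 in 20 groups. Pfkfb4 stood at 17.03 FPKM in day 21 replicate 5, where the other 4 samples lay between 9.23 and 11.4. Gbe1 stood at 15.1 FPKM in day 3 replicate 2, where the others lay between 7.90 and 9.48. Phka1 stood at 11.9 FPKM in day 3 replicate 4, where the others lay between 26.9 and 32.6. That library also had the lowest fibre index of all samples and the highest sum of macrophage markers (2128 FPKM), and the part of either in its Phka1 value was not tested.

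For 6 genes the difference from uninjured muscle was not the same at day 21 as at day 3, tested as day 21 against day 3 in limma. This is the comparison already given above, in which 9.23% of all genes were called higher and 16.2% lower. Without day 3 replicate 4 only Phkg1 was called. With a common FPKM sum only Pfkfb1 and Phkg1 were, where 174 of all 14630 genes were called higher. The difference of the 2 log2 fold changes was 1.28 for Pfkfb1, 0.63 for Gys1, 1.17 for Pygm, 1.03 for Phka1, 1.44 for Phkg1 and 0.98 for Slc2a4, with adjusted p from 0.000972 for Phkg1 to 0.0452 for Gys1. All 5 day 21 samples lay above all 5 day 3 samples for 5 of these genes, and Gys1 overlapped. The uninjured samples are shared by both effects and cancel in the difference.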

How the results depend on the processing

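Pfkfb3 was lower at every day and under every alternative tried, with log2 fold changes between -2.48 and -1.56 at day 3, -3.21 and -2.20 at day 7, -2.46 and -1.86 at day 14, and -1.83 and -1.43 at day 21. The rest of this paragraph gives results that moved, and where no reason is given the cause was not tested. The count of members called fell when FPKM was rescaled to a common sum, from 7, 4 and 1 at days 7, 14 and 21 to 2, 1 and 0, and from 6 to 2 between days 3 and 21. At day 7 the 2 were Pfkfb3 and Pfkfb4, the latter higher, where 6372 of all 14630 genes were called higher and 210 lower. From day 3 to day 21 this sum gave 174 of all genes called higher and 4872 lower. Quantile normalization left 1 at day 14, where 8.91% of all genes were called lower. It moved the share of called genes that were higher from 54.1% to 42.6% at day 3 and from 36.2% to 50.04% from day 3 to day 21. A pseudocount of 0.1 moved it from 50.8% to 63.7% at day 21. Fits on only the 2 groups compared called 7 at day 14 and 3 at day 21, all lower. The share of all genes called lower also rose, from 11.3% to 12.8% at day 14 and from 1.69% to 4.92% at day 21. With the 9 samples closer to another group left out, 8 were called at day 14, all lower, where 16.1% of all genes were called lower. From day 3 to day 7, 1 was then called, Pfkfb3, which fell further (-1.20, adjusted p = 0.00963). Of all genes 552 were called higher and 1491 lower in that step, against 0 and 7 in the main fit. Picking samples by the expression then tested favours such calls. With a single sample left out, the count ran from 2 (without day 14 replicate 5) to 6 at day 14, and from 1 (without day 3 replicate 4) to 6 from day 3 to day 21. The shares of all genes called under these omissions are not given here.

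The replicate numbers do not pair the samples: same-numbered samples of different groups correlated in their deviations with r from -0.52 to 0.57 (15 of 51 over 0.1), and 7 of 27 correlated best with their own number. A fit with the replicate block called 7 members at day 14 instead of 4, where 13.95% of all genes were called lower instead of 11.3%. A block on the letter of the sample description called 3 members from day 3 to day 21 instead of 6. Among all genes it called 919 higher instead of 1351.

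Relative to the fibre index, the day 3 count of 4 was 2 without Tnnc2 and 2 to 5 with 1 sample left out (2 without uninjured replicate 4 or 5 or day 3 replicate 2 or 4). The day 7 count of 3 was 1 with a pseudocount of 0.1, 1 without day 3 and day 7 replicate 5 together, 7 without the 9 samples, and 1 to 4 with 1 sample left out (1 without uninjured replicate 4 or day 7 replicate 1, 4 or 5). These counts take both directions together. Of all 14630 genes, 8416 were called at day 7 in the main fit. The number was 6112 with a pseudocount of 0.1, 4748 without the 2 samples, and 11707 without the 9, of which 11519 were higher and 188 lower. Without those 2 and without those 9 samples the counts were 2 and 3 at day 14, where 1 was called, and 1 and 1 at day 21, where 0 were. Of all genes, 6027 and 9130 were then called at day 14, against 3508 in the main fit. At day 21 it was 98 and 300, against 50. Omission of 1 sample gave 0 to 1 at day 21 (1 without day 7 replicate 5).

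Values that changed sign were near 0 or were moved by the common sum. With the common sum, Pfkfb4 was 0.34 at day 3, 0.51 at day 7, 0.41 at day 14 and -0.14 from day 3 to day 21, and Gbe1 0.23 at day 3 and -0.59 from day 3 to day 21. Pfkfb4 was 0.0758 at day 14 after quantile normalization, and -0.0423 with the letter block and -0.15 without the 9 samples at day 21. With 1 sample left out it ran from -0.15 to 0.0398 at day 14 and from -0.11 to 0.0937 at day 21. Gbe1 from day 3 to day 21 was -0.0143 with a pseudocount of 0.1, -0.00506 with 0.5, -0.0144 with voom, -0.0607 without the 2 samples, and -0.23 to 0.32 with 1 left out. Relative to the fibre index, Gbe1 at day 7 was 0.10 with a second index, 0.18 with the replicate block, 0.61 without the 9 samples, 0.0674 without Tnnc2, and -0.18 to 0.21 with 1 left out. At day 14 it was -0.0464 with the second index, -0.0469 without the 9 samples and -0.0554 to 0.25 with 1 left out. Pfkfb1 at day 14 ran from -0.25 to 0.00824 and Phkg1 at day 21 from -0.20 to 0.0688, with 0.0217 without Tnnc2. The log2 ratio of Gys1 to Pygm was -0.18 at day 14 and -0.23 at day 21 after quantile normalization, and ran from -0.17 to 0.0892 at day 7 and from -0.083 to 0.15 at day 21 with 1 left out.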
